A study of Rattus norvegicus with 19 samples.

Results

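Androgens and growth hormone set the level of a group of transcripts in the rodent kidney. The 7 genes followed here in the renal cortex of diabetic rats were listed as such transcripts or as hormone receptors: Kap, Cyp2c11, Slco1a1, Slco1a4, Odc1, Ghr and Prlr. Ghr and Prlr are the receptors, and dependence on hormones was not tested. All 7 were found on the array by gene name, among 24238 genes that could be tested. They were chosen by name with their levels in DKD and Sham rats already known, so the difference between DKD and Sham is given as a description without a test. The array's annotation calls Slco1a4 by the older name Slco1a2.

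Of 19 rats, all male and of the Crl:CD (SD) strain, the kidney cortex was measured on 1 array each. The DKD+enarodustat group (n = 7) received 65 mg/kg of streptozotocin intravenously and then feed with 0.01% (w/w) enarodustat, a drug that stabilises hypoxia-inducible factor by blocking prolyl hydroxylases. The DKD group (n = 7; DKD stands for diabetic kidney disease) received the same streptozotocin dose and plain feed, and the Sham group (n = 5) received vehicle and plain feed. Injection preceded grouping by 7 days, DKD+enarodustat and DKD rats were selected to be alike in glucose and weight, and the tissue was collected another 14 days later. Streptozotocin kills the insulin-producing beta cells, so both diabetic groups differ from Sham by the toxin and by its metabolic consequences together. Rat ages were not given in the sources used here.

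Testosterone changes transcription in kidney tubules through DNA response elements made of paired copies of a short arm. Growth hormone and prolactin bind related cytokine receptors, which signal through the kinase JAK2 and the transcription factors STAT5A and STAT5B. In male rats growth hormone is released in pulses, and that pulse pattern keeps male-biased liver genes such as Cyp2c11 on. Levels below are log2 signals minus the 75th percentile of the same array, so a difference of -1 between groups is a halving of the signal. Each probe has its own scale, so levels are compared between rats and not between genes.

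The upstream sequences of the 4 genes with the largest differences between diabetic and Sham rats are shown to let their start regions be compared. They are the bases before the transcription start in RefSeq (build GRCr8), written 5′ to 3′ on the gene's strand, and stop before the gene's own span. Capitals mark an arm of the androgen response element, AGAACA or its complement TGTTCT, which the glucocorticoid receptor also binds. Kap lies on the minus strand at chr4:168409033-168409282, Cyp2c11 on the plus strand at chr1:246174966-246175215, Slco1a1 on the minus strand at chr4:176682028-176682242 and Slco1a4 on the minus strand at chr4:176495847-176496096.
Kap: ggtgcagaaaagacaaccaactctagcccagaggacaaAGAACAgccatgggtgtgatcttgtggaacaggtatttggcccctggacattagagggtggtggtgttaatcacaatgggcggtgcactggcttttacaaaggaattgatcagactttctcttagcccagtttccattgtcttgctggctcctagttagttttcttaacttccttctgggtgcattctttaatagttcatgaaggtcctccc
Cyp2c11: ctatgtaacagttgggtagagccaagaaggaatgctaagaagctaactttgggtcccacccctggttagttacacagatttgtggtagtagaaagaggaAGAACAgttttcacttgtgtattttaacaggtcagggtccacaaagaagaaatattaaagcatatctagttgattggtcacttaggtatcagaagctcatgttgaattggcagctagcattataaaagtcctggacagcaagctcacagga
Slco1a1: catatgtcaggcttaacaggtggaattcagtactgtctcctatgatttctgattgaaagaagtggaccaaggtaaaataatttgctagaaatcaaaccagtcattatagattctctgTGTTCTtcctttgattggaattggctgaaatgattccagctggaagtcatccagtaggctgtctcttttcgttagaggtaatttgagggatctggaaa
Slco1a4: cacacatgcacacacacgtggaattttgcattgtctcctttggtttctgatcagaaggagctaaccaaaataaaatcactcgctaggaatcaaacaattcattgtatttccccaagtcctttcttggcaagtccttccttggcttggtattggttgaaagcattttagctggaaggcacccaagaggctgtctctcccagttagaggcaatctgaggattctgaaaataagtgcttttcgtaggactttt

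For Slco1a1 the 35 bases of the 250-base window nearest the start lie within the span RefSeq gives the gene and are not printed. Counting the last base of each whole window, the one before the start, as -1, an arm began at -212 in Kap, at -151 in Cyp2c11 and at -133 in Slco1a1, and the Slco1a4 window held none. Among the other genes, an arm began at -93 in Ghr and at -45 in the second of the Prlr windows, and the Odc1 window held none. The Ghr and Prlr windows, and most of the Odc1 window, lie within the spans RefSeq gives those genes. Over 33469 rat promoter windows of 250 bases, 17.5% held such an arm on either strand. The full element, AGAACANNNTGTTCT, was found in 0.012% of windows and in no window of the 7 genes. The STAT5 motif TTCNNNGAA, present in 7.67% of windows, occurred only in the second of the Prlr windows, as TTCTAGGAA beginning at -176. The Slco1a1 and Slco1a4 windows were the most alike, with 178 of 250 bases identical (71.2%), against 40.8% to 54.8% for the other 20 pairs of genes. These matches describe letters only.

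Between DKD+enarodustat and DKD, 0 of the 7 genes had an adjusted p under 0.05, from limma fitted to every gene, where 2.00% of all genes did (484 genes, with 3318 at an unadjusted p under 0.05). Of the 7 genes, 1 had an unadjusted p under 0.05, Cyp2c11. The ranges of DKD+enarodustat and DKD overlapped for all 7, as they did for all but 1.25% of genes. The median difference was -0.10 over the 7 genes and -0.023 over all genes. Against Sham, 6 of the 7 were lower in DKD+enarodustat by the same test, where 26.1% of all genes were called (3884 lower and 2433 higher), and in the same 6 every treated rat lay below every Sham rat, which held for 8.87% of all genes. DKD and Sham rats did not overlap in 6 of the 7, a pattern that 5.82% of all genes showed in that direction. By the adjusted p, 17.1% of all genes differed between DKD and Sham (2198 lower and 1945 higher in DKD), and the counts of other genes below can be read against those shares. The exception in both was Odc1. Both comparisons use the same 5 Sham arrays, so they are not independent of each other. The 7 genes were chosen with those Sham levels known. Their p values for DKD+enarodustat against Sham therefore describe them and are not independent tests.

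**Figure D1:**
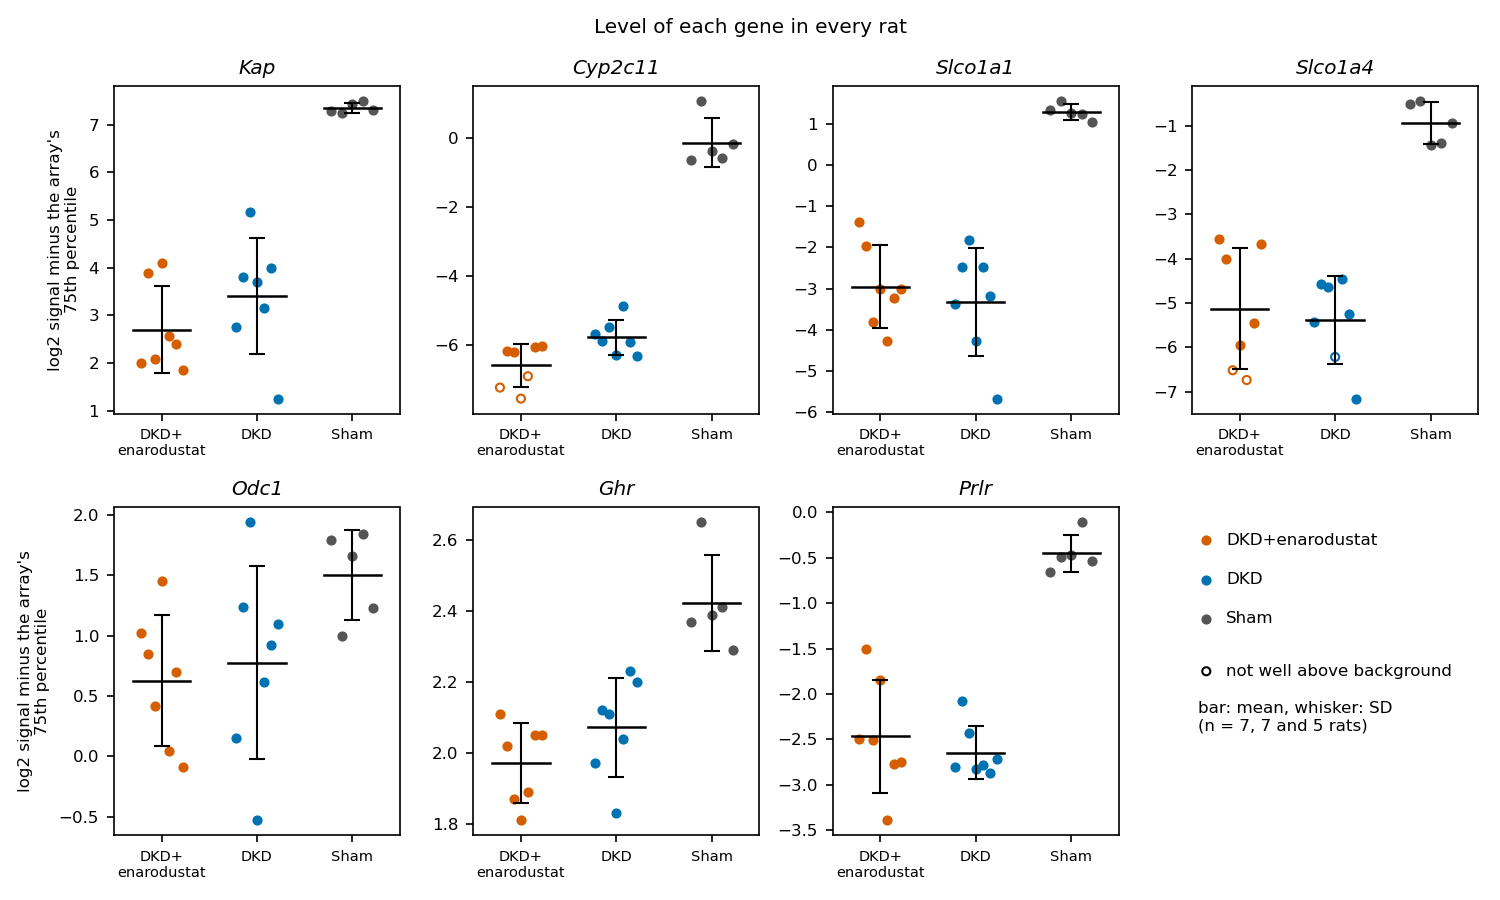
Level of each of the 7 genes in every rat, as log2 signal minus the array's 75th percentile, with DKD+enarodustat (n = 7), DKD (n = 7) and Sham (n = 5) from left to right. Bars are means, whiskers SDs and open circles signals not well above background; Sham rats sit above both diabetic groups in every panel except that of Odc1, where the ranges overlap.

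Kap, the kidney androgen-regulated protein of proximal tubule cells, is a classical androgen-induced transcript of mouse kidney. Its level was 2.00, 3.88, 2.08, 4.09, 2.56, 2.40 and 1.86 in DKD+enarodustat rats 1 to 7, against 2.75, 3.80, 5.17, 3.69, 3.16, 3.99 and 1.25 in DKD rats 1 to 7 and 7.29, 7.25, 7.43, 7.50 and 7.30 in Sham rats 1 to 5. The Sham rats were nearly identical to each other, while the diabetic rats spread over several log2 units and none reached the lowest Sham rat. The means were 2.70 ± 0.92 in DKD+enarodustat, 3.4 ± 1.21 in DKD and 7.35 ± 0.11 in Sham (SD). Kap fell by 4.66 on the log2 scale in DKD+enarodustat relative to Sham (SE 0.52, adjusted p = 5.52e-06, limma), which is 25.2-fold lower. In DKD it was 15.5-fold lower than in Sham, a log2 difference of -3.95 ± 0.52 (SE). DKD+enarodustat and DKD differed by -0.70 (95% interval -1.70 to 0.30, adjusted p = 0.584, limma), within the spread between rats.

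Cyp2c11 encodes the main male-specific cytochrome P450 of rat liver, which hydroxylates steroids. Its level was -7.24, -6.17, -6.21, -7.56, -6.91, -6.07 and -6.04 in the DKD+enarodustat rats, against -5.70, -5.89, -5.48, -6.31, -4.89, -5.91 and -6.33 in the DKD rats and -0.66, 1.06, -0.38, -0.60 and -0.18 in the Sham rats. The probe was well above background in all 5 Sham rats and all 7 DKD rats but in only 4 of 7 DKD+enarodustat rats, so the low values are close to the floor of the array. All DKD+enarodustat arrays lay in row 2 of their slides, and the share of probes detected also differed by row, as described below. Cyp2c11 fell by 6.44 on the log2 scale in DKD+enarodustat relative to Sham (SE 0.34, adjusted p = 1.24e-09, limma), 87.1-fold, and was 49.7-fold lower in DKD than in Sham (log2 difference -5.63 ± 0.34). These were the 2nd and 3rd largest drops of any gene in their comparisons. The size rests on how background was treated: with normexp correction and quantile normalization the differences were -3.92 and -3.77. Between DKD+enarodustat and DKD the difference was -0.81 (95% interval -1.46 to -0.16), which did not pass after adjustment over all genes (adjusted p = 0.226, limma), and it was -0.15 with the normexp setting.

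Markers of hepatocytes were set beside the Cyp2c11 values, and their part in the Cyp2c11 result was not tested. Of the 10 hepatocyte markers listed, 7 could be tested, and 4 were higher and 0 lower in DKD+enarodustat than in Sham. Their summed level was 3.27 to 4.18 in DKD+enarodustat, 2.62 to 3.08 in DKD and 2.02 to 2.32 in Sham. Most of that sum was Apoc3, an apolipoprotein, which averaged 3.31 in DKD+enarodustat, 2.17 in DKD and 1.41 in Sham and was itself higher in DKD+enarodustat than in DKD (1.14 ± 0.16, adjusted p = 0.000516, limma). The fibrinogen chain genes Fgb and Fga, measured above background on 19 arrays as Apoc3 was, were higher in DKD+enarodustat than in Sham by 3.66 ± 0.41 and 1.53 ± 0.23 (adjusted p = 5.17e-06 and 0.000101, limma) and higher in DKD than in Sham by 3.28 ± 0.41 and 1.56 ± 0.23 (adjusted p = 2.86e-05 and 0.000146, limma). Serpina1, above background on 10 arrays, was higher in DKD+enarodustat than in Sham by 1.71 (adjusted p = 0.0111, limma). Of the other markers, Ahsg was above background on 19 arrays, Alb on 16, Apoa2 on 10, Ttr on 4, and Tat and Cps1 on 0. Ahsg gave 0.12 ± 0.07 in DKD+enarodustat and 0.03 ± 0.07 in DKD relative to Sham (adjusted p = 0.201 and 0.821, limma). Alb gave 1.40 ± 0.62 and 1.04 ± 0.62 (adjusted p = 0.109 and 0.298, limma). Apoa2 gave 0.61 ± 0.37 and 0.78 ± 0.37 (adjusted p = 0.256 and 0.172, limma).

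Slco1a1 encodes an organic anion transporter (OATP1) of the proximal tubule's brush border and of hepatocytes, and its kidney level in rodents is kept up by androgen. It measured -1.39, -1.97, -3.81, -3.01, -4.28, -3.22 and -3.0 in the DKD+enarodustat rats, against -3.38, -2.48, -1.83, -4.28, -2.47, -3.17 and -5.67 in the DKD rats and 1.33, 1.55, 1.25, 1.23 and 1.03 in the Sham rats. All diabetic rats lay below all Sham rats, and DKD rat 7 was the lowest. Slco1a1 fell by 4.23 in DKD+enarodustat relative to Sham (SE 0.56, adjusted p = 3.18e-05, limma), 18.8-fold, and was 24.3-fold lower in DKD than in Sham (log2 difference -4.60 ± 0.56). In the authors' deposited value table these log2 differences were smaller for Slco1a1, at -3.21 in DKD+enarodustat and -3.4 in DKD, and for Kap they were -4.07 and -3.35. DKD+enarodustat minus DKD was 0.37 (95% interval -0.71 to 1.45, adjusted p = 0.869, limma), and without DKD rat 7 it was -0.02.

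Slco1a4 encodes OATP2, a related transporter of bile salts and digoxin known from liver and the blood-brain barrier. Its level was -3.56, -4.01, -6.52, -5.95, -6.74, -5.46 and -3.66 in the DKD+enarodustat rats, against -5.43, -4.57, -4.63, -6.22, -4.47, -5.26 and -7.16 in the DKD rats and -0.50, -0.44, -1.44, -1.39 and -0.94 in the Sham rats. The groups of diabetic and Sham rats were again apart, with the probe well above background in 5 of 7 DKD+enarodustat, 6 of 7 DKD and 5 of 5 Sham rats. It fell by 4.19 in DKD+enarodustat relative to Sham (SE 0.59, adjusted p = 5.91e-05, limma), 18.2-fold, and was 21.8-fold lower in DKD than in Sham (-4.45 ± 0.59). With the normexp setting those differences were -2.55 and -2.70. The difference between DKD+enarodustat and DKD was 0.26 (95% interval -0.88 to 1.40, adjusted p = 0.932, limma).

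The other Slco1a4 probes did not show this drop, and their signals in Sham rats were lower than that of the main probe. Why the probes differ was not tested. A probe starting at base 3555 of the same transcript, which the array's annotation places nowhere in the genome, was well above background on 18 arrays. It averaged -5.97 ± 1.2 in DKD+enarodustat, -5.91 ± 0.24 in DKD and -5.37 ± 0.34 in Sham. Its difference was -0.60 in DKD+enarodustat relative to Sham (adjusted p = 0.347, limma) and -0.54 ± 0.43 in DKD relative to Sham. The remaining probe, starting at base 2000, was above background on 0 arrays. The probe standing for Slco1a4, starting at base 2645, shares a run of 15 bases with the Slco1a1 probe and matches it at 36 of 47 aligned bases (76.6%). The longest runs that the other Slco1a4 probes share with the Slco1a1 probe are 6 and 5 bases. Whether Slco1a1 RNA adds to the Slco1a4 signal was not tested.

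**Figure D2:**
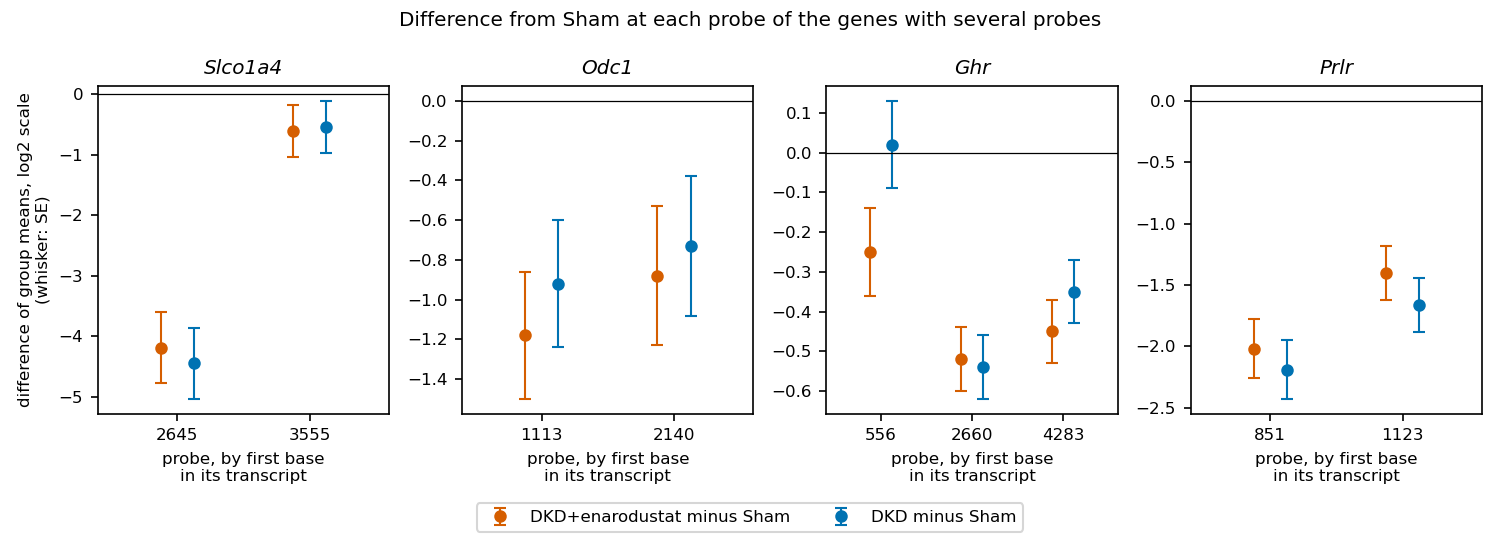
Difference from Sham on the log2 scale (whiskers: SE) at each kept probe of the genes with several probes, with DKD+enarodustat minus Sham left of DKD minus Sham and probes ordered by first base in their transcript. The Slco1a4 probes differ (about -4 against about -0.5), and the second was dimmer than the first in Sham rats. The Ghr probe nearest the 5′ end stands apart from its other probes. Odc1 and Prlr probes lie on the same side of 0.

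Across rats, the Slco1a1 and Slco1a4 signals moved together. Within the 7 DKD+enarodustat rats Pearson's r was 0.85 (exact permutation p = 0.0113, adjusted p = 0.237 over the 42 relations computed, Spearman's rho 0.93 with exact p = 0.00675), and 0.72 without the 2 rats farthest from the median of Slco1a1. Within the 7 DKD rats r was 0.98 (exact permutation p = 0.00179, adjusted p = 0.0750, rho 0.89 with exact p = 0.0123), and 1.0 after rounding without the 2 rats farthest from the median. Neither passed the adjustment. Of the 21 pairs of the 7 genes, r was above 0 for 13 in DKD+enarodustat and for 20 in DKD rats, and no pair in either group passed the adjustment. The shared probe sequence described above bears on this pair.

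**Figure D3:**
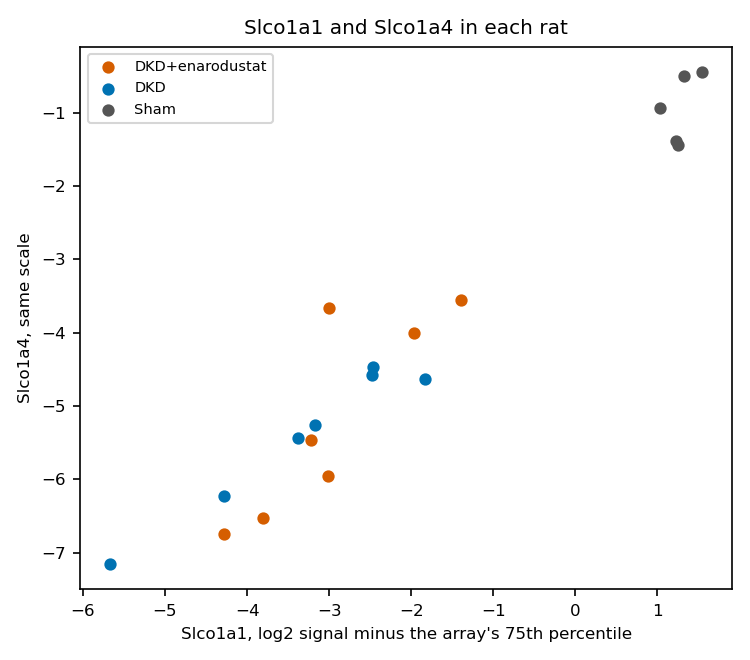
Slco1a4 against Slco1a1 in each rat, both as log2 signal minus the array's 75th percentile, coloured by group. The diabetic rats spread along a diagonal below and left of the 5 Sham rats.

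Slco1a1 and Slco1a4 belong to a row of neighbouring genes on chromosome 4 of GRCr8, in the order Slco1b2, Slco1a4, Slco1a1, Slco1a3, Slco1a6 and Slco1a5. Slco1a6 (OATP5) and Slco1a5 (OATP3) were in the list of organic anion transporters examined. Slco1a3, the kidney transporter OAT-K1, was added after its value had been seen. Slco1a6 ranged from -0.41 to 2.39 (median 1.42) in DKD+enarodustat, from -1.74 to 2.07 (median 1.16) in DKD and from 2.91 to 3.74 (median 3.49) in Sham, with no overlap between diabetic and Sham rats. It was 4.4-fold lower in DKD+enarodustat (log2 difference -2.14 ± 0.57, adjusted p = 0.00938, limma) and 5.58-fold lower in DKD (-2.48 ± 0.57, adjusted p = 0.00536, limma), each relative to Sham.

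Relative to Sham, Slco1a5 fell by 1.89 in DKD+enarodustat (SE 0.46, adjusted p = 0.0052, limma) and gave -1.64 in DKD (SE 0.46, adjusted p = 0.0189, limma). Slco1a3, given without a test because its value had been seen, fell by 1.5 (SE 0.39) and by 1.43 (SE 0.39). Both also had no overlap between diabetic and Sham rats. The flanking Slco1b2 gave 0.37 ± 0.53 in DKD+enarodustat (adjusted p = 0.692, limma) and 0.12 ± 0.53 in DKD (adjusted p = 0.934, limma) relative to Sham, and was above background on only 6 arrays. DKD rat 4 had the lowest value of its group for Slco1a3, Slco1a6 and Slco1a5, whereas DKD rat 7 had the lowest for Slco1a1 and Slco1a4.

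Elsewhere among the 9 other organic anion transporters tested, 2 were higher and 2 lower in each diabetic group than in Sham, with 0 called between DKD+enarodustat and DKD. The higher ones were the prostaglandin transporter Slco2a1, by 1.22 ± 0.13 in DKD+enarodustat (adjusted p = 2.82e-06, limma) and 1.19 ± 0.13 in DKD (adjusted p = 6.78e-06, limma), and Slco4a1, by 1.5 ± 0.30 (adjusted p = 0.00137, limma) and 1.19 ± 0.30 (adjusted p = 0.0109, limma). The lower ones were Slco1a5 and Slco1a6.

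The gene next to Cyp2c11 on chromosome 1 of GRCr8 is Cyp2c24, another P450. Cyp2c24 ranged from -8.60 to -5.0 in DKD+enarodustat, from -9.65 to -4.39 in DKD and from -9.11 to -1.12 in Sham. It was above background in 2 of 7, 4 of 7 and 4 of 5 rats of those groups, and Sham rat 1 was among the lowest of all rats. It was lower in DKD+enarodustat than in Sham (-4.13 ± 1.22, adjusted p = 0.0175, limma) and did not pass in DKD (-3.4 ± 1.22, adjusted p = 0.0639, limma). Of the 9 other Cyp2c genes listed, 3 could be tested. Cyp2c23, an arachidonic acid epoxygenase of rat kidney, gave -0.09 ± 0.06 in DKD+enarodustat and -0.08 ± 0.06 in DKD relative to Sham (adjusted p = 0.319 and 0.464, limma), and Cyp2c7 gave -0.08 ± 0.25 and 0.07 ± 0.25 (adjusted p = 0.865 and 0.916, limma).

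Odc1 encodes ornithine decarboxylase, the rate-limiting enzyme of polyamine synthesis and a strongly androgen-induced gene in mouse kidney. Its level was 1.02, 0.85, 0.42, 1.45, 0.04, 0.70 and -0.09 in the DKD+enarodustat rats, against 0.15, 1.24, 1.94, -0.53, 0.62, 0.92 and 1.1 in the DKD rats and 1.79, 1.00, 1.66, 1.84 and 1.23 in the Sham rats. The Sham rats were toward the top, but both diabetic groups reached into their range. The difference was -0.88 ± 0.35 in DKD+enarodustat relative to Sham (adjusted p = 0.0732, limma), which did not pass, and -0.73 ± 0.35 in DKD relative to Sham. Its other probe, starting at base 1113, averaged -0.55 ± 0.46 in DKD+enarodustat, -0.30 ± 0.72 in DKD and 0.63 ± 0.41 in Sham, and passed in DKD+enarodustat relative to Sham (-1.18 ± 0.32, adjusted p = 0.0103, limma). DKD+enarodustat and DKD differed by -0.15 ± 0.32 (adjusted p = 0.934, limma).

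Among 16 other polyamine genes, all testable, 1 was higher and 3 lower in DKD+enarodustat than in Sham, 1 higher and 2 lower in DKD than in Sham, and 0 differed between DKD+enarodustat and DKD. Sat2, a relative of spermidine/spermine acetyltransferase, was lower by 0.62 ± 0.09 in DKD+enarodustat (adjusted p = 7.39e-05, limma) and 0.55 ± 0.09 in DKD (adjusted p = 0.00038, limma). Azin2, an antizyme inhibitor, was higher by 0.43 ± 0.14 (adjusted p = 0.03) and 0.50 ± 0.14 (adjusted p = 0.0203). Paox, a polyamine oxidase, and Dohh, which finishes the hypusine residue made from spermidine, gave -0.20 ± 0.06 and -0.23 ± 0.07 in DKD+enarodustat (adjusted p = 0.0259 and 0.0273, limma), and in DKD they gave -0.14 ± 0.06 and -0.17 ± 0.07 (adjusted p = 0.171 and 0.117, limma).

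Ghr and Prlr encode the growth hormone and prolactin receptors. The Ghr probe nearest the 5′ end and both Prlr probes lie in coding sequence and are shown because results differ between probes of one receptor. Their sequences are those of the array files, placed on rn4: the Ghr probe starting at base 556 at chr2:52524230-52524289 on the minus strand, and the Prlr probes on the plus strand at chr2:59677666-59678170, across an intron, and chr2:59680669-59680728.
Ghr, base 556: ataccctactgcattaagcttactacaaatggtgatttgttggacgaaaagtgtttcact
Prlr, base 851: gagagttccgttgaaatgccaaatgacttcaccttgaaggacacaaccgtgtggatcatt
Prlr, base 1123: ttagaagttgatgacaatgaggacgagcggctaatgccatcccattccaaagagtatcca

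Prlr was the receptor with the large difference. Its level was -2.50, -1.5, -2.51, -1.85, -3.39, -2.77 and -2.75 in the DKD+enarodustat rats, against -2.81, -2.08, -2.43, -2.83, -2.78, -2.87 and -2.72 in the DKD rats and -0.66, -0.49, -0.47, -0.11 and -0.53 in the Sham rats. Every diabetic rat was below every Sham rat, and the DKD rats were close together. It fell by 2.02 in DKD+enarodustat relative to Sham (SE 0.24, adjusted p = 1.25e-05, limma), 4.04-fold, and was 4.57-fold lower in DKD than in Sham (-2.19 ± 0.24), where the authors' deposited value table gave -1.6 in DKD. The other probe, starting at base 1123 and annotated to transcript variant 1 where the main probe is annotated to variant 2, gave -1.40 ± 0.22 (adjusted p = 0.000185, limma) and -1.66 ± 0.22. Both probes' annotations also name the same Ensembl transcript, and which isoforms each probe reads was not tested. DKD+enarodustat minus DKD was 0.18 (adjusted p = 0.848, limma).

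Ghr moved much less. It measured 2.11, 2.02, 1.87, 1.81, 1.89, 2.05 and 2.05 in the DKD+enarodustat rats, against 1.97, 2.12, 2.11, 1.83, 2.04, 2.23 and 2.20 in the DKD rats and 2.37, 2.65, 2.39, 2.41 and 2.29 in the Sham rats, again with no diabetic rat in the Sham range. It fell by 0.45 in DKD+enarodustat relative to Sham (SE 0.08, adjusted p = 0.00053, limma), and the difference was -0.35 ± 0.08 in DKD relative to Sham. With the slide row as a covariate the first of these no longer passed (-0.31, adjusted p = 0.255, limma). The probe starting at base 2660 gave -0.52 ± 0.08 and -0.54 ± 0.08 for these differences, and the probe starting at base 556 gave -0.25 ± 0.11 (adjusted p = 0.106, limma) and 0.02 ± 0.11. DKD+enarodustat minus DKD was -0.10 ± 0.07 (adjusted p = 0.636, limma).

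**Figure D4:**
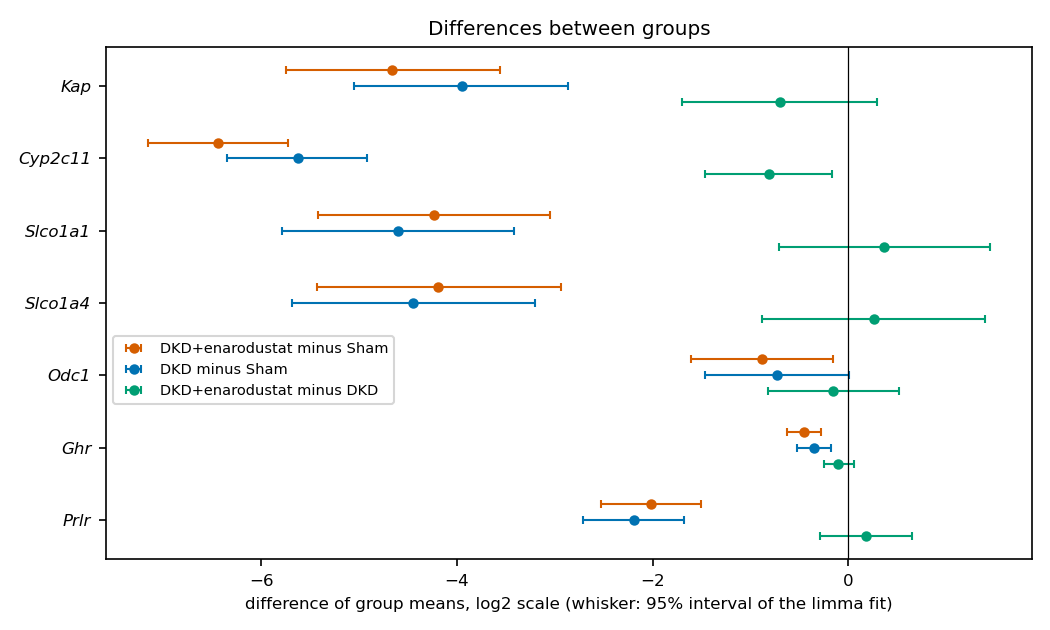
Differences between group means for the 7 genes on the log2 scale, with 95% intervals of the limma fit, for DKD+enarodustat minus Sham, DKD minus Sham and DKD+enarodustat minus DKD. The differences from Sham lie left of 0, furthest for Cyp2c11, and those between DKD+enarodustat and DKD lie near 0, with the interval of Cyp2c11 from -1.46 to -0.16.

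Downstream of these receptors, 19 other growth hormone signalling genes were tested. Of them, 1 was higher and 6 lower in DKD+enarodustat than in Sham, 1 higher and 3 lower in DKD than in Sham, and 0 were called between DKD+enarodustat and DKD. Stat5a ranged from -2.12 to -1.32 (median -1.91) in DKD+enarodustat, from -2.22 to -1.28 (median -1.59) in DKD and from -0.70 to -0.01 (median -0.56) in Sham. Diabetic and Sham rats did not overlap, and Stat5a fell by 1.36 in DKD+enarodustat (SE 0.17, adjusted p = 1.88e-05, limma) and by 1.24 in DKD (SE 0.17, adjusted p = 7.98e-05, limma), each relative to Sham. Stat5b, the partner that serves growth hormone in liver, fell by 0.56 in DKD+enarodustat (SE 0.13, adjusted p = 0.00386, limma) and gave -0.26 ± 0.13 in DKD (adjusted p = 0.203, limma).

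Grb10, an adaptor that binds insulin and growth factor receptors, fell by 0.74 in DKD+enarodustat (SE 0.10, adjusted p = 4.06e-05, limma) and by 0.39 in DKD (SE 0.10, adjusted p = 0.0121, limma). Its difference between DKD+enarodustat and DKD was -0.35 ± 0.09 and did not pass (adjusted p = 0.0582, limma). Sh2b1, an adaptor of JAK2, fell by 0.31 in DKD+enarodustat relative to Sham (SE 0.07, adjusted p = 0.00361, limma) and gave -0.12 ± 0.07 in DKD (adjusted p = 0.3, limma). Igf1, the main growth hormone target, fell by 1.43 in DKD+enarodustat (SE 0.43, adjusted p = 0.0191, limma) and by 1.45 in DKD (SE 0.43, adjusted p = 0.0253, limma), with Sham rat 2 inside the diabetic range. The higher gene was Socs3, a feedback inhibitor of cytokine receptors, at 1.09 ± 0.37 in DKD+enarodustat and 1.42 ± 0.37 in DKD relative to Sham (adjusted p = 0.0364 and 0.0125, limma).

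Of 24 steroid receptors, cofactors and enzymes listed, 19 were tested: 2 were higher and 6 lower in DKD+enarodustat than in Sham, 2 higher and 5 lower in DKD than in Sham, and 0 were called between DKD+enarodustat and DKD. The oestrogen receptor gene Esr1 ranged from -3.28 to -2.57 (median -3.14) in DKD+enarodustat, from -3.35 to -2.55 (median -2.87) in DKD and from -1.82 to -0.95 (median -1.09) in Sham, without overlap between diabetic and Sham rats. Esr1 differed from Sham by -1.82 ± 0.17 in DKD+enarodustat (adjusted p = 6.36e-07, limma) and by -1.66 ± 0.17 in DKD (adjusted p = 3.23e-06, limma).

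The glucocorticoid receptor gene Nr3c1, the receptor chaperone Fkbp4 and Hsd11b2, which inactivates glucocorticoid in the distal nephron, were also lower in both diabetic groups. Nr3c1 gave -0.34 ± 0.06 in DKD+enarodustat and -0.20 ± 0.06 in DKD (adjusted p = 0.000522 and 0.0292, limma). Fkbp4 gave -0.62 ± 0.11 and -0.47 ± 0.11 (adjusted p = 0.000337 and 0.00443, limma), and Hsd11b2 gave -0.73 ± 0.15 and -0.61 ± 0.15 (adjusted p = 0.00176 and 0.00936, limma). In the other direction, Srd5a1, a steroid 5-alpha reductase that makes dihydrotestosterone, was higher by 0.48 ± 0.12 in DKD+enarodustat and 0.53 ± 0.12 in DKD (adjusted p = 0.00897 and 0.00668, limma).

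Other genes reported as androgen-responsive in rodent kidney did not all go down. Of 9 tested, 2 were higher and 3 lower in DKD+enarodustat than in Sham, and 2 were higher and 2 lower in DKD than in Sham. Slc22a2, the basolateral organic cation transporter OCT2 that is higher in male than female rat kidney, ranged from 1.57 to 2.99 (median 2.13) in DKD+enarodustat, from 1.48 to 2.59 (median 2.04) in DKD and from 3.89 to 4.15 (median 4.08) in Sham. It fell by 1.82 in DKD+enarodustat (SE 0.22, adjusted p = 1.33e-05, limma) and by 2.00 in DKD (SE 0.22, adjusted p = 9.16e-06, limma). Slc22a6, the organic anion transporter OAT1, fell by 0.49 in DKD+enarodustat (SE 0.11, adjusted p = 0.00378, limma) and by 0.34 in DKD (SE 0.11, adjusted p = 0.0484, limma).

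Adh1c, a class I alcohol dehydrogenase, rose by 2.24 in DKD+enarodustat (SE 0.24, adjusted p = 4.03e-06, limma) and by 1.26 in DKD (SE 0.24, adjusted p = 0.00158, limma) relative to Sham. It was the only gene of the 7 hormone-related lists called between DKD+enarodustat and DKD, at 0.98 ± 0.22 (adjusted p = 0.0265, limma). That call was lost with median centring (0.96, adjusted p = 0.0585, limma), with the slide row as a covariate (0.89, adjusted p = 0.443, limma) and when any 1 of DKD rats 2, 5, 6 and 7 or DKD+enarodustat rats 2, 3, 4 and 7 was left out (0.89 to 0.98). In the authors' deposited values 2 genes of this list and 2 of growth hormone signalling were called, and among growth hormone signalling genes 2 were called with slide as a block, 1 with the normexp setting and 1 without the DKD arrays in row 2. Nudt19 fell by 0.35 in DKD+enarodustat relative to Sham (SE 0.08, adjusted p = 0.00266, limma) and gave -0.11 ± 0.08 in DKD (adjusted p = 0.402, limma). Of 16 genes that differ between male and female rat liver, only 6 could be tested in this tissue. Srd5a1, which that list also holds, was higher in both diabetic groups. In this list 1 gene was higher and 1 lower in DKD+enarodustat than in Sham, and 1 higher and 0 lower in DKD than in Sham. The lower one was Cyp2a1. It was above background on 0 of 7 arrays in DKD+enarodustat, 3 of 7 in DKD and 3 of 5 in Sham, so no size is given. Hsd3b5 and Mup4 were also dim, above background on 7 and 10 arrays. Hsd3b5 gave 1.12 ± 0.51 and Mup4 0.39 ± 0.31 in DKD+enarodustat relative to Sham (adjusted p = 0.117 and 0.419, limma), and in DKD they gave 1.36 ± 0.51 and 0.29 ± 0.31 (adjusted p = 0.0757 and 0.631, limma).

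**Figure D5:**
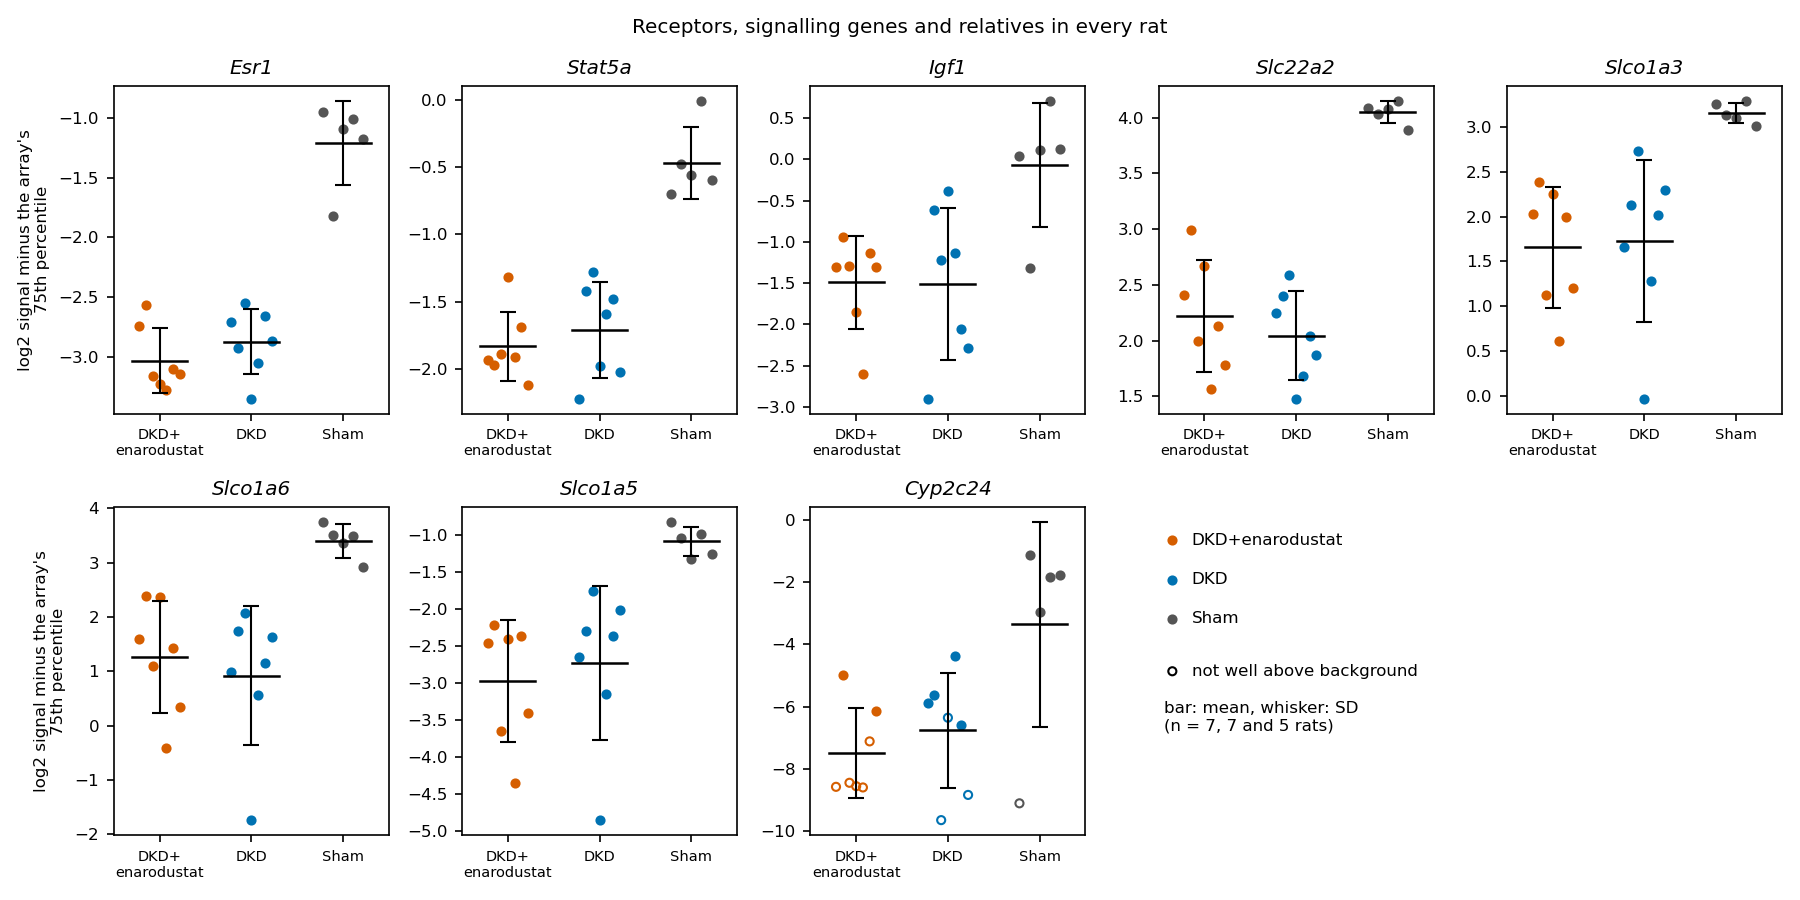
Levels in every rat, as log2 signal minus the array's 75th percentile, of receptor and signalling genes (Esr1, Stat5a, Igf1), of Slc22a2 and of the chromosomal neighbours of the transporter and P450 genes, with DKD+enarodustat, DKD and Sham from left to right. Bars are means, whiskers SDs and open circles signals not well above background; Sham rats do not overlap diabetic rats except for Igf1 and Cyp2c24.

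The genes whose levels tracked each of the 7 most closely were found by Pearson's r over all 19 arrays among 14430 genes, as a description. The arrays share the split between Sham and diabetic rats, which any gene lower in both diabetic groups also follows. Prlr was most like Slc22a2 (r = 0.973), Mark1 (0.971) and Slc7a12 (0.963). Slco1a1 was most like Slco1a4 (0.972), Tff3 (0.958) and Picalm (0.949), and Slco1a4 after Slco1a1 was most like Picalm (0.926) and Tff3 (0.914). Cyp2c11 was most like Rgn (0.957) and Hspbap1 (0.951), and Kap most like Myo5a (0.941), Kctd15 (0.937) and Pmepa1 (0.933). The closest were lower for Odc1, with Sspo (0.915), Oat (0.912) and Scamp3 (0.900), and for Ghr, with Ahcy (0.907), Kdm1b (0.907) and Fam8a1 (0.906).

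Several measures of tissue and array moved with the groups, and their part in the results above was not tested. Of 14 proximal tubule markers, 3 were higher and 10 lower in DKD+enarodustat than in Sham, and 2 higher and 9 lower in DKD than in Sham. Their median differences were -0.42 and -0.38, and the summed level was 8.18 to 8.51 in DKD+enarodustat, 8.28 to 8.46 in DKD and 8.68 to 8.83 in Sham. Of 9 markers of the thick ascending limb and distal tubule, 0 were higher and 2 lower in DKD+enarodustat than in Sham, and 1 higher and 3 lower in DKD than in Sham. Their summed level was 6.26 to 6.9 in DKD+enarodustat, 5.98 to 6.83 in DKD and 7.01 to 7.23 in Sham. Of 8 collecting duct markers, 2 were higher and 2 lower in DKD+enarodustat than in Sham, and 2 higher and 1 lower in DKD than in Sham. Their summed level was 5.67 to 6.16 in DKD+enarodustat, 5.69 to 5.97 in DKD and 5.28 to 5.61 in Sham. All of these sums left no overlap between diabetic and Sham rats, and neither did those of adipocyte and leukocyte markers below. In bulk cortex, fewer proximal tubule cells and less RNA per cell cannot be told apart. Of 8 adipocyte markers tested, 2 were higher in DKD+enarodustat and 3 in DKD than in Sham, with a summed level of -0.38 to 2.61 in DKD+enarodustat, -0.44 to 3.86 in DKD and -1.21 to -0.46 in Sham. Of 9 leukocyte markers, 2 were higher in each diabetic group than in Sham, with a summed level of 4.75 to 5.82 in DKD+enarodustat, 4.65 to 5.33 in DKD and 4.26 to 4.64 in Sham. The share of probes well above background was 58.9 ± 2.86% in DKD+enarodustat, 62.8 ± 4.87% in DKD and 64.3 ± 2.60% in Sham (SD). Within DKD it differed by row of the slide, at 57.69% and 54.74% in row 2 and 62.52% to 67.32% in row 1. It was 61.02% to 66.86% in Sham, all in row 1, and 54.45% to 62.96% in DKD+enarodustat, all in row 2.

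Position on the slides also moved with the groups: all Sham arrays were in row 1, all DKD+enarodustat arrays in row 2, and 2 DKD arrays in row 2 with the other 5 in row 1. Treatment and row therefore cannot be told apart in the direct comparison with Sham. With row as a covariate, the differences of DKD+enarodustat from Sham were -5.14 for Kap, -6.01 for Cyp2c11, -4.16 for Slco1a1, -4.18 for Slco1a4 and -2.29 for Prlr, all still past the threshold (adjusted p = 0.00451, 3.18e-05, 0.0272, 0.0335 and 0.00627, limma), and -0.29 for Odc1 (adjusted p = 0.849, limma). In row 1 alone, DKD and Sham differed by -4.09 for Kap, -5.51 for Cyp2c11, -4.58 for Slco1a1, -4.44 for Slco1a4, -0.56 for Odc1, -0.31 for Ghr and -2.27 for Prlr.

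Each of the 3 slides held all groups. Slide 3 held only Sham rat 5 of its group, so the differences from Sham there rest on that rat. Within the slides, DKD+enarodustat minus Sham was -5.02 to -4.33 for Kap, -6.90 to -6.16 for Cyp2c11, -4.65 to -3.12 for Slco1a1, -4.82 to -3.31 for Slco1a4, -1.02 to -0.46 for Odc1, -0.56 to -0.29 for Ghr and -2.44 to -1.43 for Prlr. DKD minus Sham was -4.50 to -3.04 for Kap, -6.00 to -5.40 for Cyp2c11, -4.80 to -4.29 for Slco1a1, -4.69 to -4.01 for Slco1a4, -1.04 to -0.35 for Odc1, -0.46 to -0.13 for Ghr and -2.34 to -1.87 for Prlr. The sign was the same on every slide for all 7 genes. DKD+enarodustat minus DKD changed sign between slides for Slco1a1, Slco1a4, Odc1, Ghr and Prlr, and was negative on every slide for Kap (-1.34 to -0.33) and Cyp2c11 (-0.98 to -0.63).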

How the data were processed

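Renal cortex RNA of 19 rats was hybridised in 1 colour (Cy3) to Agilent arrays, and the authors deposited 1 scanner file per array (Feature Extraction version 11.5.1.1, as the file headers record). The intensities used were the deposited processed signals, already corrected for background by that software, per the file headers. The deposited value table holds log2 values by the authors, made with limma per the submitters' processing notes; it lacks Cyp2c11 and Slco1a4 and served as an alternative. Here log2 of each processed signal was taken minus the array's 75th percentile, outlier-flagged spots were left out and spots of a probe averaged. A probe was kept if well above background on at least 5 arrays (12 of the 13 probes of the 7 genes), and among several kept probes of a gene the brightest on average was used. Symbols were updated through RefSeq accessions (GRCr8) for 21109 of 45598 probes. limma 3.58.1 (R 4.3.3) was fitted over all 3 groups and 24238 genes, with Benjamini-Hochberg adjustment and a threshold of 0.05. In simulated data, 75.0% of genes changed by 1 on the log2 scale between DKD+enarodustat and DKD were recovered. The median SE of that comparison was 0.13 over all genes. For the 7 genes it was 0.48 (Kap), 0.31 (Cyp2c11), 0.51 (Slco1a1), 0.54 (Slco1a4), 0.32 (Odc1), 0.07 (Ghr) and 0.22 (Prlr). Recovery at the SEs of the 7 genes was not tested.

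The 7 genes and the gene lists were chosen with earlier results of these data known. Adjusted p values of the list genes, and those of the 7 genes against Sham, therefore describe them and are not independent tests. From each list the text names up to 4 genes with the smallest adjusted p, and for each gene the 3 most alike in level, of which 1 is not reported here. Igf1, Socs3, Srd5a1 beside the steroid list, Slco1a3, Slco1b2, and the hepatocyte markers Ahsg, Alb, Apoa2, Ttr, Tat and Cps1 were named after their values were seen. Replicate numbers pair arrays of the same slide, and deviations of same-numbered arrays correlated at 0.133 to 0.594 in the comparisons, so the replicate block was run. Labels name 1 rat per sample; the number of arrays limits the precision. Motifs and alignments were computed with Biopython 1.88.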

Additional observations from a re-analysis of the deposited data

Results flagged for a closer look

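Among 36 combinations of probe and group of the 7 genes, 3 held a rat far from the others of its group by Dixon's criterion, where chance alone marks about 1 in 20. Cyp2c11 was 1.06 in Sham rat 2, with the other Sham rats at -0.66 to -0.18. The second kept Slco1a4 probe, starting at base 3555, was -5.41 in DKD rat 2, with the other DKD rats at -6.16 to -5.90. The Ghr probe starting at base 2660 was -1.51 in Sham rat 5, with the other Sham rats at -1.37 to -1.32.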

How the results depend on the processing

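The count of the 7 genes called between DKD+enarodustat and DKD was 0 under every alternative run. Of the 6 called lower than Sham in DKD+enarodustat, 0 passed within slide 1 or within slide 2, where few arrays remain. Odc1 passed in DKD+enarodustat relative to Sham in the authors' deposited values (-0.76, adjusted p = 0.0297, limma), with the mean over the kept probes (-1.03, adjusted p = 0.0292, limma) and without the DKD arrays in row 2 (-0.88, adjusted p = 0.0426, limma), and leaving out single arrays put its adjusted p at 0.0363 to 0.152. The replicate block changed no call of the 7 genes (Odc1 -0.86, adjusted p = 0.137, limma). Over all genes, calls between DKD+enarodustat and DKD numbered 484, but 291 with median centring, 1775 in the authors' table, 284 with no filter, 913 with slide as a block, 84 with slide row as a covariate, 1 within slide 1, 0 within slides 2 and 3, and 285 to 496 when single arrays were left out. DKD+enarodustat against Sham gave 10744 with no filter, 1032 with the row covariate, 14 within slide 1 and 46 within slide 2; DKD against Sham gave 0 and 2 within those slides. The share of calls that were higher moved by over 10 points for DKD+enarodustat against DKD (53.5% to 72.9% with no filter, 64.3% with the row covariate and 34.3% in the authors' table), for DKD+enarodustat against Sham (38.5% to 64.4% with no filter) and for DKD against Sham (46.9% to 34.7% with normexp).

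The sign of DKD+enarodustat minus DKD turned, with no call, for Odc1 at 0.27 with the row covariate, 0.04 without DKD replicate 3 (-0.37 to 0.04 over single arrays left out), 0.24 within slide 1 and 0.23 within slide 2. It turned for Ghr at 0.02 within slide 1 and 0.02 with the probe at base 2660, and for Prlr at -0.02 with the row covariate and -0.18 within slide 3. It turned for Slco1a1 at -0.02 without DKD replicate 7 (-0.02 to 0.62) and -0.35 within slide 2, and for Slco1a4 at -0.03 without DKD replicate 7, -0.0005 without DKD+enarodustat replicate 1 (-0.03 to 0.53), -0.81 within slide 2 and -0.06 with the probe at base 3555. Ghr in DKD relative to Sham was 0.02 with the probe at base 556. The cause of these shifts was not tested. Cyp2c11 and Slco1a4 lie near background in diabetic rats, which limits how precisely their differences from Sham are known.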
